A study of Homo sapiens with 6 samples.

Results

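Oxidative phosphorylation couples the oxidation of nutrients to ATP synthesis, and most of its protein subunits are encoded in the nucleus. The subunit genes were taken from the gene table by symbol, as genes whose symbol starts with NDUFA, NDUFB, NDUFC, NDUFS or NDUFV and a digit, SDHA to SDHD, UQCR, COX4 to COX8, or ATP5. Of 57905 genes in the table, 219 symbols matched. Of these, 130 were dropped because a hyphen or a terminal P marks a readthrough, antisense or pseudogene symbol, and 11 of the remaining 89 had a mean count under 10 reads. The other 78 genes were analysed, and all 78 were among the 15343 genes with enough reads to be tested. Closest to the limit were COX7A1, left out with a mean count of 9.5 reads, and COX6A2 and NDUFA7, kept with 25.3 and 31.8 reads.

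The data are RNA-seq of HK-2 cells, an immortalized line of human proximal tubular epithelium. The 3 control siRNA libraries came from cells transfected with a non-targeting Dharmacon ON-TARGETplus pool. The 3 INO80 siRNA libraries came from cells that received a SMARTpool of siRNAs against INO80, the catalytic ATPase of the INO80 chromatin remodeling complex. The labels give the genotype of the first group as WT and of the second as INO80 knockdown. Every group was transfected with Lipofectamine RNAiMAX and harvested after 48 h, so both groups carry the transfection itself. All libraries are from a single cell line and a single pool per target. The sources used here do not say whether the libraries of a group came from separate cultures, so p-values measure the spread between libraries, which may be technical.

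In the inner mitochondrial membrane, complex I (NADH dehydrogenase) and complex II (succinate dehydrogenase) pass electrons to ubiquinone. Complex III (the cytochrome bc1 complex) and complex IV (cytochrome c oxidase) carry them on to oxygen, and ATP synthase uses the proton gradient that complexes I, III and IV build. Each complex except complex II also holds subunits encoded by the mitochondrial genome. The proximal tubule is known for its many mitochondria, because active reabsorption of the filtrate needs ATP. Transcription factors such as NRF1, GABPA and YY1 are known activators of the nuclear subunit genes, and YY1 is also known to bind the INO80 complex.

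The control siRNA libraries held 16829273 to 20311588 reads on genes and the INO80 siRNA libraries 20678008 to 23784599. Levels are given as CPM, the count of a gene scaled by TMM to the size of its library, and levels of different genes are compared only as FPKM, which also divides by exonic length. CPM is a share of the RNA of a library, so fewer cells and less RNA per cell cannot be told apart. INO80 itself had 46.3, 49.3 and 54.00 CPM in control siRNA replicates 1, 2 and 3 and 13.8, 12.05 and 14.2 CPM under INO80 siRNA, 26.7% of the control mean (log2 fold change -1.90, SE 0.0956, adjusted p = 0.000161 by edgeR's quasi-likelihood test). The epithelial markers KRT8, KRT18, KRT19 and EPCAM were at 41.2 to 208.2 FPKM and CDH1 at 0.040. Of 10 proximal tubule markers, GGT1 (39.1 FPKM) and PAX8 (39.5 FPKM) were present, and the other 8, among them LRP2, CUBN, AQP1 and HNF4A, were under 1 FPKM. Markers of other nephron segments, endothelium and leukocytes reached at most 0.158 FPKM. Libraries with the same replicate number deviated from their group means together, and replicate 1 deviated against the other two in both groups. The replicate number was therefore also used as a block, which compares libraries of the same number, and that value is given where it changes a call. In the subunit genes alone, replicate 3 deviated together only weakly (correlation 0.202, against at most 0.163 for libraries of different numbers).

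The 78 subunit genes showed no common shift under INO80 siRNA, and a few of them changed. By edgeR's quasi-likelihood test with Benjamini-Hochberg adjustment over all tested genes, 3 of the 78 fell at an adjusted p under 0.05 (3.85%), against 1.49% of all tested genes that fell. Among them were NDUFA12 and NDUFA6, which encode subunits of complex I. None of the 78 rose, against 0.261% of all tested genes, and in either direction the share of all tested genes was 1.75%. At an unadjusted p under 0.05, 16 of the 78 passed (20.5%), 11 lower and 5 higher, against 16.4% of all tested genes. DESeq2 called 4 of the 78, all lower, ATP5A1 among them, and limma on FPKM called 2, NDUFA12 among them.

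With the replicate block, 14 of the 78 fell (17.9%) and 12 rose (15.4%), where 13.4% of all tested genes fell and 11.4% rose. Counted without a test, the CPM of the groups did not overlap for 19 of the 78 with INO80 siRNA lower (24.4%) and for 11 with INO80 siRNA higher (14.1%). Over all tested genes these shares were 11.5% and 11.3%. The median log2 fold change of the 78 genes was -0.0031, with 41 negative and 37 positive values, and the median of all tested genes was 0.0066. Their quartiles were -0.096 and 0.10, against -0.14 and 0.13 for all tested genes. The largest positive value was 0.29, for NDUFB6. In 70 of the 78 genes the 95% interval of the log2 fold change lay within 0.5 on either side of 0. The median standard error of the log2 fold change was 0.0686 for these genes and 0.117 for all tested genes, and their mean counts ran from 25.3 to 12408 reads.

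**Figure D1:**
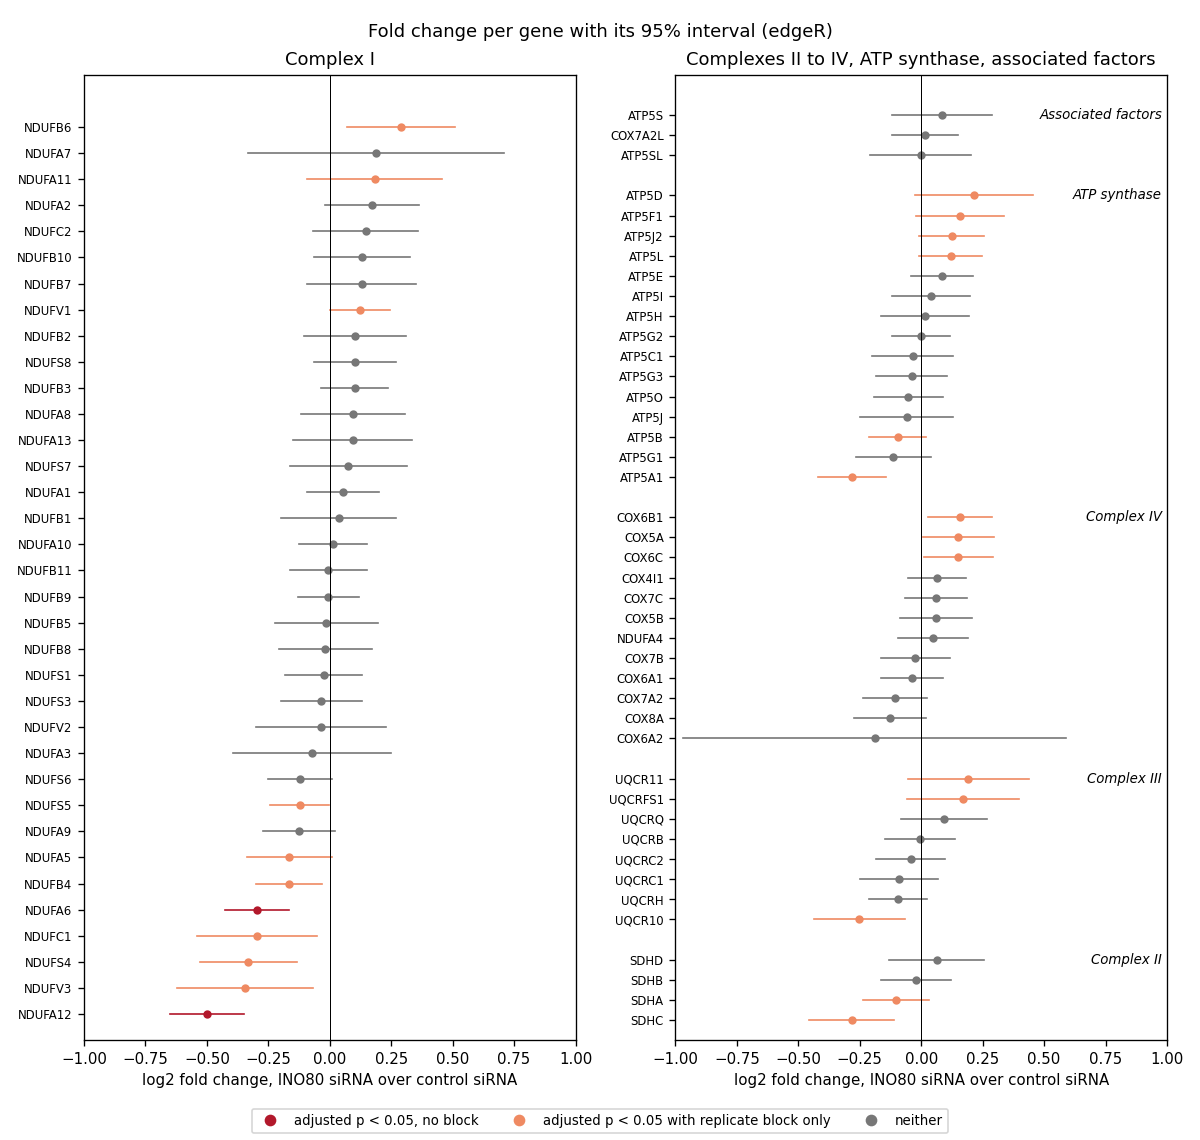
Log2 fold change of the subunit genes, INO80 siRNA over control siRNA (x axis), by complex (y axis, sorted), with the 95% interval of the edgeR fit as a line. Dark red points passed an adjusted p under 0.05 without the replicate block (NDUFA12 and NDUFA6), orange points only with it, and grey points in neither fit. The points lie on both sides of 0, with NDUFA12 at -0.50 and NDUFB6 at 0.29.

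NDUFA12 (ENSG00000184752, GRCh37 chromosome 12 from 95290831 to 95397546 on the minus strand) encodes an accessory subunit of the peripheral arm and is a relative of the assembly factor NDUFAF2. In replicates 1, 2 and 3 the control siRNA libraries held 74.6, 69.9 and 68.3 CPM and the INO80 siRNA libraries 52.4, 47.7 and 50.5 CPM. Every INO80 siRNA library was below every control library, and replicate 1 was the highest of its group in both. The mean went from 70.9 ± 3.26 to 50.2 ± 2.38 CPM (SD, n = 3), a log2 fold change of -0.50 (SE 0.0661, 95% interval -0.65 to -0.35, adjusted p = 0.0147 by edgeR).

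NDUFA6 (ENSG00000184983, chromosome 22 from 42481529 to 42486959 on the minus strand) encodes an accessory subunit of the LYR family, which docks the mitochondrial acyl carrier protein on the peripheral arm. It went from 59.5, 57.8 and 58.3 CPM to 47.5, 47.1 and 48.6 CPM, again without overlap, and its fall was smaller. The mean went from 58.5 ± 0.844 to 47.7 ± 0.768 CPM (SD, n = 3), a log2 fold change of -0.29 (SE 0.0571, 95% interval -0.43 to -0.16, adjusted p = 0.0471 by edgeR). For each of NDUFA12 and NDUFA6 alone, an exact two-sided permutation test over the 6 libraries gave p = 0.1, the smallest value that 3 libraries against 3 allow.

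Both falls passed with the block as well, at adjusted p of 2.51e-08 for NDUFA12 and 8.89e-05 for NDUFA6 by edgeR. Without the block, the call of NDUFA12 held without replicate 1 of either group, at an adjusted p of 0.0416 without the control and 0.0232 without the INO80 siRNA library. It was lost with any other single library left out. NDUFA12 was then at an adjusted p of 0.0822 and 0.0711 without control siRNA replicate 2 or 3, and at 0.0826 and 0.0946 without INO80 siRNA replicate 2 or 3. NDUFA6 lost its call whichever library was left out, with adjusted p from 0.0926 to 0.177. The log2 fold change of each stayed negative, between -0.53 and -0.46 for NDUFA12 and -0.31 and -0.28 for NDUFA6 over all 21 alternative analyses. NDUFA6 shares its position with an antisense gene and a second short gene that together had 22.5 reads per library on average, against 1092 for NDUFA6. The strand setting of the counting is not given in the sources used here, so reads of overlapping genes on opposite strands cannot be told apart. NDUFA12 overlaps no other gene in the table.

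**Figure D2:**
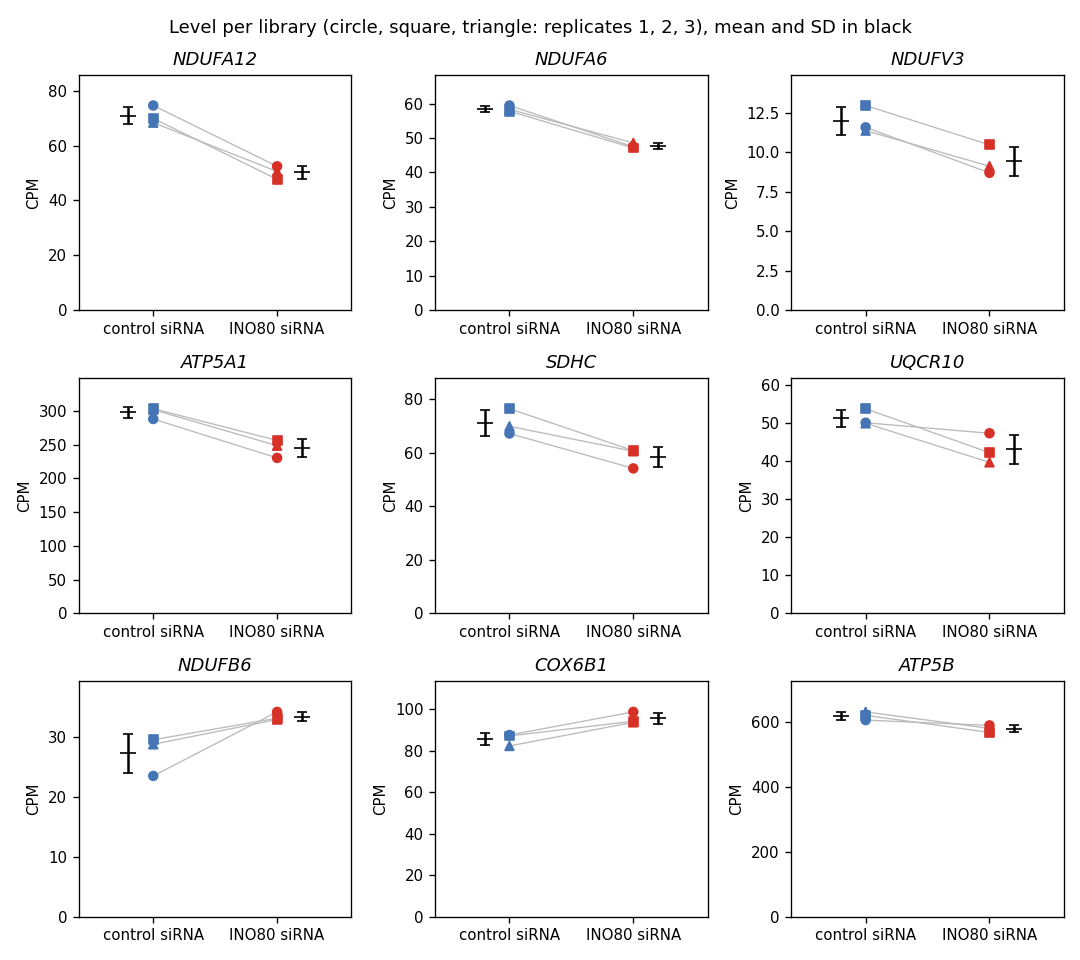
CPM (y axis, from 0) of 9 genes in each of the 6 libraries, control siRNA in blue and INO80 siRNA in red, with circle, square and triangle for replicates 1, 2 and 3, lines joining the same replicate number, and the mean and SD of each group in black. NDUFA12, NDUFA6, NDUFV3, ATP5A1, SDHC, UQCR10 and ATP5B were lower in every INO80 siRNA library than in any control library, and NDUFB6 and COX6B1 higher.

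The remaining complex I genes spread to both sides. With the block, 6 more fell, where 13.4% of all tested genes fell. NDUFV3 (log2 fold change -0.34, adjusted p = 0.203 without and 0.0125 with the block, edgeR) encodes a small accessory subunit near the NADH-oxidizing site, and went from 11.6, 12.97 and 11.4 CPM to 8.70, 10.5 and 9.12 CPM without overlap. NDUFS4, an accessory subunit whose loss is a known cause of Leigh syndrome, had a log2 fold change of -0.33 (adjusted p = 0.106 without and 0.00306 with the block). NDUFC1, NDUFB4 and NDUFA5, accessory subunits, had log2 fold changes of -0.30, -0.17 and -0.16. NDUFC1 overlaps MGARP on the same strand and NAA15 on the other, which together had 4165 reads per library on average, against 426 for NDUFC1. NDUFS5, an accessory subunit on the intermembrane space side and the highest of the 78 genes per length, went from 186, 178 and 177 CPM to 166, 164 and 168 CPM. The groups of NDUFS5 did not overlap, but the difference was small, a log2 fold change of -0.12 (adjusted p = 0.292 without and 0.0167 with the block, edgeR).

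Of the 36 complex I genes, 3 rose with the block only, where 11.4% of all tested genes rose with it. NDUFB6, an accessory subunit of the membrane arm, had the largest rise of all 78, from 23.5, 29.5 and 28.8 CPM to 34.2, 33.1 and 32.9 CPM. Control siRNA replicate 1 lay below the other controls, and all 3 INO80 siRNA libraries were above them (log2 fold change 0.29, SE 0.0962, adjusted p = 0.18 without and 0.00324 with the block, edgeR). NDUFB6 shares its span with 5 other genes that together had 50.2 reads per library on average. NDUFA11, a membrane arm subunit, had a log2 fold change of 0.18 and NDUFV1, the core subunit that binds FMN and oxidizes NADH, 0.12. The 7 core subunits, those conserved from bacteria, had a median log2 fold change of -0.024, and the 29 accessory subunits -0.0054.

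Summed over its 36 genes, complex I stood at 1899, 1903 and 1897 CPM under control siRNA and at 1832, 1840.5 and 1849 CPM under INO80 siRNA, a ratio of 0.969 without overlap. Without the called genes, the sums of the other 33 overlapped between the groups (ratio 0.999). All 78 genes together, the called genes included, were at 6476, 6499 and 6487 CPM and 6318, 6415 and 6439 CPM, lower without overlap (ratio 0.985). This sum is weighted to the most counted genes. Its mean went from 6487 to 6391 CPM, where ATP5A1 alone went from 298 to 245 CPM and ATP5B from 619 to 579 CPM. Of the 78 genes, 41 had negative and 37 positive log2 fold changes.

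**Figure D3:**
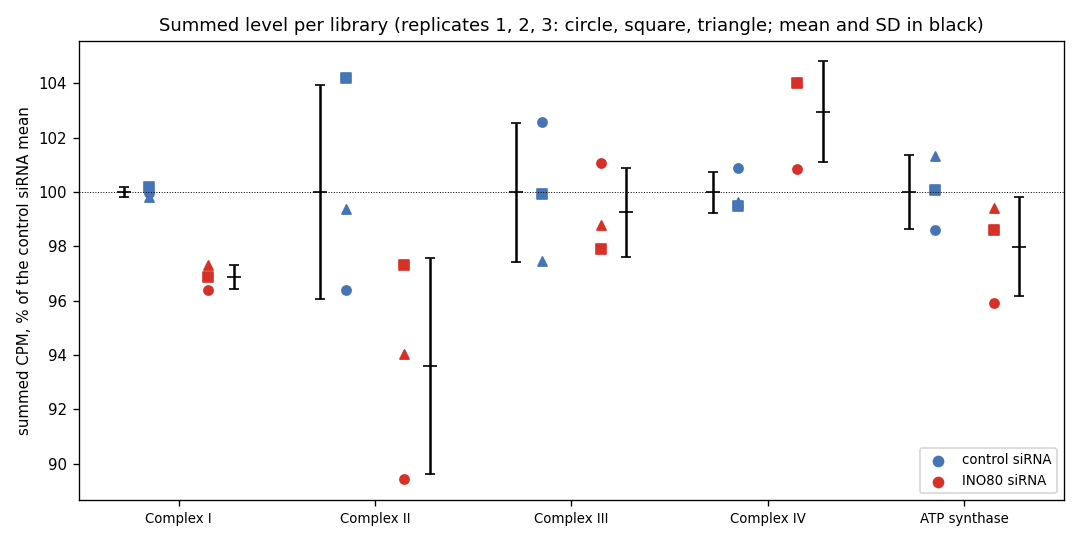
Summed CPM per library as a percentage of the control siRNA mean (y axis, not from 0), for each complex (x axis). Blue is control siRNA, red INO80 siRNA, with circle, square and triangle for replicates 1, 2 and 3 and the mean and SD in black. In complex I every INO80 siRNA library lies below every control library, at a ratio of 0.969 of the means, whereas without the called genes the groups overlap (ratio 0.999, not drawn).

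Complex II is succinate dehydrogenase, which is also an enzyme of the TCA cycle. None of its 4 genes passed without the block, though 1 had an unadjusted p under 0.05, and SDHC and SDHA fell with it. With the block, 13.4% of all tested genes fell. SDHC, a membrane anchor that helps hold the heme and the ubiquinone site, went from 67.1, 76.4 and 69.8 CPM to 54.1, 60.7 and 60.5 CPM. The groups did not overlap, and replicate 1 was the lowest in both (log2 fold change -0.28, SE 0.0754, adjusted p = 0.111 without and 8.30e-05 with the block, edgeR). SDHA, the flavoprotein that oxidizes succinate, was at 155, 161 and 153 CPM and 143, 153 and 140.2 CPM, with overlap (log2 fold change -0.10, adjusted p = 0.44 without and 0.0479 with the block).

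SDHB, the iron-sulfur subunit, was at 66.1, 71.3 and 72.1 CPM and 66.2, 70.2 and 70.4 CPM, a log2 fold change of -0.019 (95% interval -0.16 to 0.12). SDHD, the other anchor, was at 44.7, 50.96 and 48.5 CPM and 45.2, 51.9 and 53.4 CPM, a log2 fold change of 0.062 (95% interval -0.13 to 0.26). The groups of both genes overlapped, and neither passed in either fit. Whether SDHC and SDHD differed in response was not tested. Summed CPM of complex II was 333, 359.7 and 343 and 309, 336 and 325, with overlap.

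In complex III, 1 of 8 genes fell and 2 rose with the block, against 13.4% and 11.4% of all tested genes. None passed without it (1 had an unadjusted p under 0.05). UQCR10, a small membrane subunit, went from 50.01, 53.7 and 49.9 CPM to 47.3, 42.2 and 39.6 CPM. All INO80 siRNA libraries were below the controls, and replicate 1 showed the smallest gap (log2 fold change -0.25, SE 0.0808, adjusted p = 0.17 without and 0.00149 with the block, edgeR). UQCR11, another small subunit, was at 62.4, 56.8 and 52.1 CPM and 75.5, 59.3 and 60.6 CPM. It was higher in every pair of the same replicate number, yet the groups overlapped, since replicate 1 was the highest in both (log2 fold change 0.19, adjusted p = 0.436 without and 0.00851 with the block). The Rieske iron-sulfur protein UQCRFS1 rose with the block in the same manner, with a log2 fold change of 0.17 (adjusted p = 0.00888). UQCRH, the acidic hinge protein that assists contact with cytochrome c, is the complex III gene with the highest FPKM. It stood at 130.0, 133 and 129 CPM and 120.2, 124 and 123 CPM, without overlap, with a log2 fold change of -0.093, and passed in neither fit. The core proteins UQCRC1 and UQCRC2 had log2 fold changes of -0.089 and -0.043, and UQCRQ and UQCRB 0.093 and -0.0044.

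Complex IV was the complex with no gene lower in either fit. With the block COX6B1, COX6C and COX5A rose, where 11.4% of all tested genes rose. Without it none of the 12 genes passed. An unadjusted p under 0.05 was found for 3, all higher, against 16.4% of all tested genes in either direction. COX6B1, a subunit on the intermembrane space side that joins the dimer, went from 87.6, 87.1 and 82.3 CPM to 98.7, 94.2 and 93.7 CPM, without overlap (log2 fold change 0.16, SE 0.0572, adjusted p = 0.218 without and 0.0077 with the block, edgeR). COX6C went from 56.05, 59.96 and 56.3 CPM to 61.6, 63.9 and 65.8 CPM, also without overlap (log2 fold change 0.15, adjusted p = 0.27 without and 0.0255 with the block). COX6C and COX6B1 are less certain, because 17 and 7 pseudogenes carry their names in the table. COX5A had a log2 fold change of 0.15 (adjusted p = 0.0211 with the block).

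COX8A, the complex IV gene with the highest FPKM, was at 56.7, 58.1 and 59.8 CPM and 55.1, 50.2 and 54.7 CPM, lower without overlap, and passed in neither fit (log2 fold change -0.13, 95% interval -0.27 to 0.020). COX7A2 showed the same pattern, at 96.8, 94.8 and 96.5 CPM and 85.1, 90.4 and 92.2 CPM (log2 fold change -0.11, 95% interval -0.24 to 0.023). COX4I1, a large nuclear subunit that contacts the catalytic core, was at 267, 253 and 261 CPM and 274, 274 and 268 CPM, higher without overlap and passing in neither fit (log2 fold change 0.064, 95% interval -0.054 to 0.18). NDUFA4, whose product is now assigned to complex IV in spite of its name, was at 125, 124 and 117 CPM and 119, 129 and 131 CPM with overlap (log2 fold change 0.048). Its direction changed when some libraries were left out. Summed over the 12 genes, complex IV was at 1140.1, 1125 and 1126 CPM and 1139.6, 1176 and 1176 CPM, a ratio of 1.03, and the groups overlapped at replicate 1.

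Several complex IV subunits have tissue isoforms, and in HK-2 cells the ubiquitous ones held nearly all of the reads. COX6A1 had 63.1, 65.9 and 67.1 FPKM in the control siRNA libraries, and the heart and muscle isoform COX6A2 1.64, 1.69 and 1.85 FPKM. Under INO80 siRNA neither passed a test, with log2 fold changes of -0.038 and -0.19. COX6A2 had few reads, so that its 95% interval ran from -0.97 to 0.59, and its direction depended on the libraries used. COX7A2 had 49.1, 49.6 and 50.6 FPKM, and its muscle counterpart COX7A1 lay under the read limit with 5, 6 and 13 reads under control siRNA and 15, 9 and 9 under INO80 siRNA. COX4I2, the isoform known from lung, had 0 reads in all 6 libraries, which allows up to 3 per library by counting error. COX6B2 had at most 3 reads in a library, COX8C at most 1 and COX7B2 none. NDUFA4L2, a relative of NDUFA4 known to be induced by HIF-1, had 7, 8 and 3 reads under control siRNA and 16, 3 and 10 under INO80 siRNA.

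In ATP synthase, 2 of 15 genes fell and 4 rose with the block, against 13.4% and 11.4% of all tested genes. None passed without it (1 had an unadjusted p under 0.05). ATP5A1 encodes the alpha subunit of the catalytic F1 head. It went from 288, 303 and 302 CPM to 230.4, 256 and 249 CPM, with every INO80 siRNA library below the controls and replicate 1 the lowest in both groups. Its log2 fold change was -0.28 (SE 0.0602), with an adjusted p of 0.0607 without and 8.36e-07 with the block by edgeR, and 0.00764 by DESeq2. It passed in 8 of the 21 alternative analyses. ATP5A1 overlaps HAUS1 on the opposite strand, and 9 pseudogenes carry its name. ATP5B, the catalytic beta subunit, was the most counted of the 78 genes, at 606, 621 and 631 CPM and 589.6, 568 and 580.3 CPM. Its groups did not overlap, and the difference was smaller than that of ATP5A1 (log2 fold change -0.096, adjusted p = 0.403 without and 0.0291 with the block, edgeR).

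The 4 subunits that rose with the block lie in the stalks and the membrane part of the enzyme, as do most of the 15 genes. Of the 15, 8 had negative and 7 positive log2 fold changes. ATP5D, the delta subunit of the F1 central stalk, went from 50.4, 43.4 and 51.3 CPM to 64.5, 51.9 and 52.2 CPM, without overlap and with INO80 siRNA replicate 1 well above the rest (log2 fold change 0.22, adjusted p = 0.36 without and 0.00793 with the block, edgeR). ATP5J2, the membrane subunit f, went from 117, 115 and 113 CPM to 119, 129 and 128 CPM without overlap (log2 fold change 0.12, adjusted p = 0.338 without and 0.03 with the block). ATP5J2 shares its strand and span with PTCD1 and with a readthrough gene of both. With CPSF4 on the other strand, these genes had 1021.5 reads per library on average, against 2506 for ATP5J2. ATP5F1, subunit b of the peripheral stalk, had a log2 fold change of 0.16 and ATP5L, subunit g, 0.12. Summed CPM of the 15 genes was 2205, 2238 and 2266 and 2146, 2206 and 2223, with overlap.

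The ring of subunit c is made from 3 genes that encode the same mature peptide. Under control siRNA ATP5G1 had 14.1, 15.7 and 14.6 FPKM, ATP5G2 27.5, 28.8 and 28.8 FPKM and ATP5G3 22.7, 24.7 and 24.9 FPKM. ATP5G1 was the lowest in every library and ATP5G2 the highest. On CPM, ATP5G1 was at 37.9, 40.8 and 37.9 and 36.8, 35.3 and 35.7, lower without overlap but passing in neither fit (log2 fold change -0.11, 95% interval -0.27 to 0.041). ATP5G2 was at 112, 114 and 114 and 116, 114 and 111 CPM and ATP5G3 at 158, 166 and 168 and 149, 164 and 167 CPM. Both overlapped, with log2 fold changes of -0.0016 and -0.038, whose direction depended on the analysis. ATP5G1 has 7 pseudogenes and ATP5G2 3, so the split of reads between near-identical sequences is uncertain.

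The symbol rule also took 3 genes that encode associated factors rather than subunits. COX7A2L, a factor that joins complexes III and IV into supercomplexes, was at 82.6, 77.7 and 77.3 CPM and 80.9, 77.3 and 81.9 CPM (log2 fold change 0.016, 95% interval -0.12 to 0.15). ATP5S, the coupling factor B, and ATP5SL had log2 fold changes of 0.085 and -0.0018. The groups of all 3 overlapped, and none passed in either fit.

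Before any comparison, the levels per length differed widely among the 78 genes. Under control siRNA the median FPKM was 14.3 for complex I, 25.4 for complex II, 42.8 for complex III, 51.9 for complex IV and 28.3 for ATP synthase. Within complex I the levels ran from 0.900 FPKM for NDUFA7 to 328 ± 3.32 FPKM for NDUFS5 (SD, n = 3), followed by NDUFB7 at 119.7 ± 3.13 FPKM. In ATP synthase ATP5B led with 272 ± 10.3 FPKM. The 4 genes of complex II lay close together, with SDHC at 35.2 ± 2.85, SDHB at 28.3 ± 1.83, SDHD at 22.5 ± 1.85 and SDHA at 18.5 ± 0.691 FPKM. The ranges of these 4 over the control libraries did not meet. The length used is that of all annotated exons of a gene together, so FPKM understates genes with long rarely used exons, such as NDUFA5 with an exonic length of 9851 bases. NDUFA7 is listed under overlapping IDs and shares its span with RPS28, which makes its low value uncertain.

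**Figure D4:**
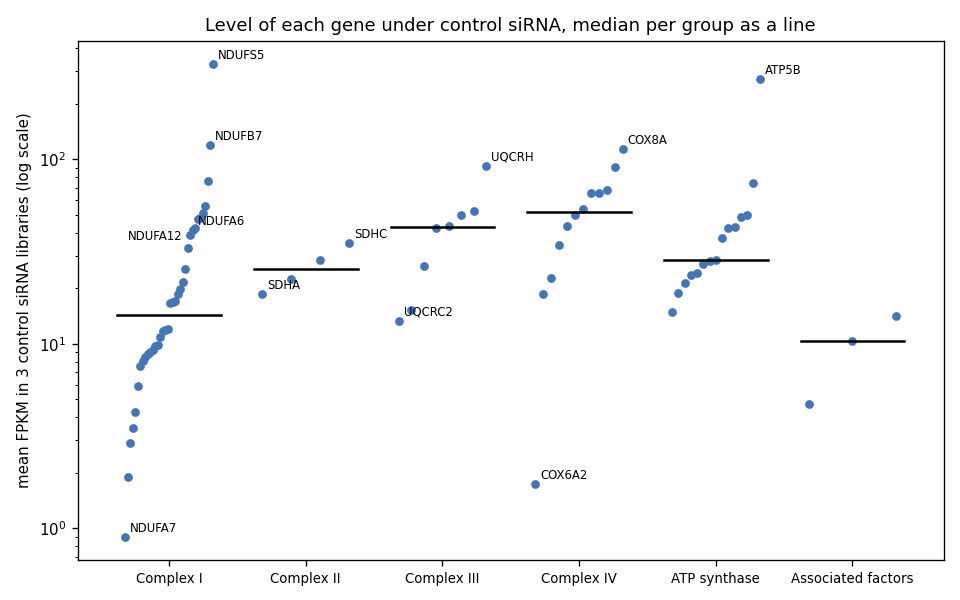
Mean FPKM of each of the 78 genes in the 3 control siRNA libraries (y axis, log scale) by complex (x axis), sorted within each complex, with the median as a line. NDUFS5 and ATP5B stand above the others of their complexes, and NDUFA7 and COX6A2 lie lowest.

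Other genes of the pathway were read from the same fit. Of 6 respiratory chain genes whose symbols lie outside the rule, none passed without the block (1 had an unadjusted p under 0.05, and DESeq2 and limma called none), and their median log2 fold change was -0.029. CYC1, the cytochrome c1 of complex III, had a log2 fold change of -0.15 and fell with the block (adjusted p = 0.00862). ATPIF1, the inhibitor of ATP synthase, had a log2 fold change of -0.097 and passed in neither fit. The 13 mitochondrially encoded subunits all had positive log2 fold changes, with a median of 0.12, but none passed without the block by edgeR, DESeq2 or limma, and 0 had an unadjusted p under 0.05. With the block 8 of the 13 rose, against 11.4% of all tested genes. The levels of the 13 moved together, with replicate 2 the lowest of both groups for each, so they do not count as 13 separate observations. MT-ND2 had a log2 fold change of 0.090 and passed in neither fit. MT-ND1 and MT-CO3 had 1792, 921 and 1446 CPM and 1806, 1127 and 1709 CPM in control siRNA replicates 1, 2 and 3 against 2018, 1015 and 1684 CPM and 1971, 1277 and 1932 CPM under INO80 siRNA. For both genes the libraries differed more by replicate number than by siRNA, with replicate 2 low in both groups.

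Assembly factors build the complexes without staying in them. Over all tested genes, 1.49% fell and 0.261% rose without the block, and 13.4% fell and 11.4% rose with it. Of the 16 complex I factors none passed without the block, where 3 had an unadjusted p under 0.05, DESeq2 called 1 and limma none, and 1 fell and 2 rose with it. NDUFAF6 went from 12.9, 15.8 and 14.7 CPM to 23.03, 17.9 and 20.6 CPM without overlap (log2 fold change 0.50, adjusted p = 0.0932 without and 0.000392 with the block, edgeR). FOXRED1 had a log2 fold change of 0.37 (adjusted p = 0.161 without and 0.000723 with the block). Without the block, edgeR called none of the factors of complexes II, III and IV, of which 1, 2 and 4 had an unadjusted p under 0.05. DESeq2 called 1 of those of complex IV and limma none. Of the 4 complex II factors only SDHAF2, which helps attach FAD to SDHA, fell with the block (log2 fold change -0.38, adjusted p = 0.188 without and 0.0244 with the block). C6orf57, now known as SDHAF4, had a log2 fold change of -0.17 and passed in neither fit. Among the 6 complex III factors TTC19 and BCS1L, which act on the Rieske protein, rose with it (log2 fold changes 0.24 and 0.24). Among the 22 complex IV factors 5 fell and 2 rose with it. Those of smallest p without the block were COA3 (log2 fold change -0.34, adjusted p = 0.0659 without and 0.000251 with the block) and COX11 (log2 fold change -0.24). COX20 had the lowest log2 fold change of the 22, at -0.43 (adjusted p = 0.184 without and 0.00435 with the block, edgeR). TMEM70, 1 of 3 factors of ATP synthase and needed to place subunit c, fell without the block, from 22.6, 24.6 and 21.3 CPM to 15.8, 17.1 and 16.3 CPM (log2 fold change -0.48, SE 0.0917, adjusted p = 0.0468 by edgeR). Its groups did not overlap. The call was lost with library totals alone, with limma and with any single library left out, and it held with the block (adjusted p = 4.12e-05).

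Of 14 tested regulators of mitochondrial gene expression none passed without the block (5 had an unadjusted p under 0.05, and DESeq2 and limma called none). PPARGC1B, a coactivator of respiratory genes, had a log2 fold change of -0.59 (adjusted p = 0.167 without and 0.00532 with the block) and its partner ESRRA had a log2 fold change of 0.23 (adjusted p = 0.183 without and 0.0076 with the block). Of 18 TCA cycle enzymes, 2 fell and none rose, against 1.49% and 0.261% of all tested genes. The 4 with an unadjusted p under 0.05 were all lower. With the block 4 fell and 1 rose, OGDH, a subunit of the 2-oxoglutarate dehydrogenase complex (log2 fold change 0.12, adjusted p = 0.339 without and 0.0271 with the block, edgeR). Without the block, none of the 18 was called without control siRNA replicate 2 or 3 or without INO80 siRNA replicate 3, where 2 had an unadjusted p under 0.05 in each case. SUCLG2, a subunit of succinyl-CoA synthetase, went from 47.8, 48.6 and 47.8 CPM to 32.4, 33.1 and 33.8 CPM (log2 fold change -0.54, SE 0.0616, adjusted p = 0.00775 by edgeR). Its groups did not overlap. Of 75 tested mitochondrial ribosomal protein genes, which translate the mitochondrially encoded subunits, 4 fell and none rose by edgeR (18 lower and 5 higher at an unadjusted p under 0.05, with none higher by DESeq2 or limma). DESeq2 called 7 lower and limma 1, and with 1 library left out edgeR called 0 to 3, with 0 without control siRNA replicate 3 or INO80 siRNA replicate 3 (16 and 22 at an unadjusted p under 0.05). The 4 were MRPL51 (log2 fold change -0.60), MRPL35 (log2 fold change -0.58), MRPS27 (log2 fold change -0.56) and MRPS10 (log2 fold change -0.43), with adjusted p of 0.0063, 0.0229, 0.0236 and 0.0471 by edgeR. MRPL51 went from 102, 109 and 109 CPM to 66.9, 73.7 and 70.1 CPM, without overlap. With the block 20 of the 75 fell and 6 rose, where 13.4% of all tested genes fell and 11.4% rose. The median log2 fold change of the 75 was -0.029.

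Short motifs that the symbol rule did not use stood more often in the promoters of the subunit genes than in all promoters. Sequences from 250 bases before to 50 after each transcription start were taken from RefSeq on GRCh38.p14, and 64 of the 78 genes matched. The letters GCATGCGC, the core of the NRF1 motif, stood in 14 of the 64 (21.9%) on either strand, against 3.70% of all 27305 genes with such a sequence. The ETS core CCGGAAG, bound by GABPA, stood in 20 (31.2%, against 12.2%), and the YY1 core AAGATGG in 18 (28.1%, against 7.10%). At least 1 of the 3 stood in 39 (60.9%, against 20.7%). The 27305 genes include genes with too few reads to be tested here, whereas all of the subunit genes were tested. A match describes the exact letters and is not a binding site, and variants of a motif were not counted. Longer forms of the NRF1 and YY1 motifs were not searched apart from these cores. A gene with several starts was taken to hold a motif if any of its promoters did. The promoters of the 64 genes were close in base composition to all promoters, with median GC contents of 59.2% and 58.3%.

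The promoters of NDUFA12 and NDUFA6 are shown because both genes fell, with motif matches in capitals. NDUFA12 lies at chr12:95003648-95003947 and NDUFA6 at chr22:42090723-42091022, both on the minus strand and written 5′ to 3′.
NDUFA12: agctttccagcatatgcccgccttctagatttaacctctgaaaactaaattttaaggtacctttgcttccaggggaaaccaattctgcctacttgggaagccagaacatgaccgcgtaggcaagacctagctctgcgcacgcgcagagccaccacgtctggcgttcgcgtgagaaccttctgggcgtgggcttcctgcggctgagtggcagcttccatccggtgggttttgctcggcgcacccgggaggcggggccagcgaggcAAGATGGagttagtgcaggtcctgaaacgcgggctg
NDUFA6: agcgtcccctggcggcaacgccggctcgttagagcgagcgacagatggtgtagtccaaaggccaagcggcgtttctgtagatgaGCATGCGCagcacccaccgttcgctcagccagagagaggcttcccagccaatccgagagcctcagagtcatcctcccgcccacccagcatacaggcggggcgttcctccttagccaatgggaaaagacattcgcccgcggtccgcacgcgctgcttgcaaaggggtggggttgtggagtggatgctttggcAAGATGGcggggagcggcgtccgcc
Both held the YY1 core shortly after the start, first base at position 15 in NDUFA12 and at position 26 in NDUFA6, on the strand of the gene. These letters contain ATG and lie after the transcription start, so they can also be those of a translation start codon. In both genes the frame that this ATG opens holds no stop codon up to the end of the sequence shown. The frames were not compared with protein sequences, and binding of YY1 was not tested. NDUFA6 also held the NRF1 core from position -166. Only the exact letters GCATGCGC were counted, and the NDUFA12 sequence holds the variant GCACGCGC. ATP5A1 and COX6B1, which moved in opposite directions with the block, each held the ETS core, ATP5A1 at only 1 of its 2 starts.

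Fold changes are given for the genes with and without each motif as a description. The median log2 fold change was -0.027 for the 14 genes with the NRF1 core and 0.014 for those without it. For the ETS core the medians were 0.047 and -0.011, and for the YY1 core -0.048 and 0.016. These differences were not tested. With the block, 4 of the 18 genes with the YY1 core fell and 2 rose, and 1 of the 20 genes with the ETS core fell and 3 rose. Over all tested genes 13.4% fell and 11.4% rose with the block. These counts are too small to tell the motifs apart.

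The deviation of replicate 1 was seen in the subunit genes about as often as in all tested genes. In 52 of the 78, replicate 1 departed from the mean of replicates 2 and 3 in the same direction under both siRNAs, 23 higher and 29 lower (66.7%, against 70.4% of all tested genes). NDUFA3, NDUFA11, UQCR11 and UQCRFS1 were among those high in replicate 1, at 0.33, 0.30, 0.20 and 0.23 on the log2 scale under control siRNA and 0.32, 0.31, 0.33 and 0.24 under INO80 siRNA. Without both libraries of replicate 1, 4 of the 78 genes fell by edgeR without the block, NDUFA12, ATP5A1 and UQCR10 among them (5.13%, against 2.8% of all tested genes). What sets replicate 1 apart was not tested.

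Exonic length did not order the changes. The median log2 fold change of the 8 subunit genes shorter than 1000 bases was -0.041, of the 21 from 1000 to 2000 bases 0.060, of the 29 from 2000 to 4000 bases -0.0066 and of the 20 longer than 4000 bases -0.0031. For all tested genes of these lengths it was -0.020, 0.0087, 0.022 and 0.0020. The span of 49 of the 78 genes meets that of another gene in the table, 29 of them on the same strand, and 38 genes have pseudogene copies listed. NDUFA5, ATP5F1, NDUFS5, ATP5L and SDHC have 12, 7, 6, 6 and 4 copies, so the limit given for COX6C applies to them too. COX4I1 overlaps EMC8, with 1218 reads per library on average. SDHD overlaps TIMM8B and a second SDHD entry, with 481 reads together.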

How the data were processed

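RNA was sequenced from HK-2 cells in 3 control siRNA and 3 INO80 siRNA libraries at 48 h. The authors deposited a table with the raw read count of each gene per library, whole numbers without normalization, and an FPKM value that equals the deposited count divided by exonic length and by the library's total count, on the usual FPKM scale. The submitters' processing notes name HISAT2 2.0.1, HTSeq and hg19, whereas the paper's methods name ELAND and hg38. The coordinates in the table are GRCh37. Gene ontology columns were not used.

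Counts of all genes kept by filterByExpr were fitted with edgeR 4.0.16 (limma 3.58.1, R 4.3.3), TMM scaling and treatment alone, by the quasi-likelihood test with Benjamini-Hochberg adjustment over all tested genes. The steps were tested on simulated data. A gene was called at an adjusted p under 0.05. Same-numbered libraries deviated together (correlation across genes 0.639, 0.446 and 0.427 for replicates 1, 2 and 3, at most 0.165 for other pairs), so the numbers were taken as pairs, a hint from the data alone. Across the subunit genes alone the correlations were 0.507, 0.437 and 0.202, and at most 0.163 for other pairs, so replicate 3 is weakly paired there. The study's methods name no pairing, and the replicate block stayed an alternative, beside DESeq2 1.42.0, limma on log2(FPKM + 0.1) or log2(FPKM + 1), other scalings and filters, and left-out libraries. On the FPKM scale with a pseudocount, changes of low genes are understated.

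Named genes were those called, the 2 of smallest p and the highest FPKM in each complex, SDHA to SDHD, isoform sets, and the 3 largest rises and falls with the block. Other genes called with the block are given by their log2 fold change. From the other lists, genes called or else the 2 of smallest p were named, and MT-ND1 and COX20 after their values were seen. The genes and lists were chosen with earlier results of these data known. Counting intervals and limits cover counting error only. Results for some genes are not reported here.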

Additional observations from a re-analysis of the deposited data

How the results depend on the processing

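The count of 3 called subunit genes became 26 with the replicate block (14 lower, 12 higher) and 7 with the replicate block in DESeq2, while the other scalings, filters and tools gave 2 to 4. With libraries left out it ran from 0 to 30, the highest values in blocked fits. By edgeR without the block it was 2 without replicate 1 of either group, 1 without replicate 2 and 0 without replicate 3 of either group, where 10 genes (without control siRNA replicate 3) and 11 (without INO80 siRNA replicate 3) had an unadjusted p under 0.05. Fewer libraries were tested there.

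Over all tested genes, 268 calls (228 lower, 40 higher) became 708 without a filter on low counts, 3798 with the replicate block (54.0% lower), 610 with DESeq2, 1691 with DESeq2 and the block, 82 and 60 with limma on log2(FPKM + 0.1) and log2(FPKM + 1), and 2 to 3978 with libraries left out. The cause was not tested. The median log2 fold change of the subunit genes stayed between -0.0153 and 0.0149 in all 21 alternatives, and the INO80 call held in all 21.

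Near 0, ATP5G2 turned to 0.0077 with library totals alone, 0.0093 without a filter, and 0.0080 and 0.0078 with limma. With libraries left out, the log2 fold change ran from -0.026 to 0.018 for ATP5G2, -0.017 to 0.046 for COX7A2L, -0.057 to 0.0089 for SDHB, -0.070 to 0.011 for ATP5G3, -0.51 to 0.15 for COX6A2 and -0.0093 to 0.10 for NDUFA4. UQCRB, UQCRC2, ATP5SL and NDUFA3 also took both signs, and every other subunit gene the text names kept its direction. Depth limits COX6A2 and NDUFA7, the least counted of the genes.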
